A study of Mus musculus with 46 samples.

Results

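Serum amyloid A proteins are small apolipoproteins of the acute phase response, and the mouse genes Saa1, Saa2, Saa3 and Saa4 encode them. They were picked by name, as the genes to which the RefSeq accessions of the array's non-control probes map. Each gene had 1 probe printed at 1 spot, which gives 4 of the 55681 probes of the array and 4 of the 20887 genes that could be named. None of the 4 spots was saturated or marked as an outlier on any array. Saa1, Saa2 and Saa3 were well above background on all 46 arrays, and Saa4 on the 24 liver arrays but on 0 of the 22 cecum arrays.

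The mice were male C57BL/6, an inbred strain, 12 weeks old at the start and 20 weeks old after 8 weeks on their diet. The high fat diet (HFD) drew 45% of its energy from fat and the low fat diet (LFD) 10%. In HFD + inulin, 10% of the weight of the HFD was inulin, a fructose polymer that bacteria of the large bowel ferment, put in the place of corn starch and cellulose. In HFD + inul PB the same share was inulin esterified with propionate and inulin esterified with butyrate, at 5% each, 2 short-chain fatty acids that fermentation also makes. The arrays, with total RNA of one tissue sample each, numbered 6 of liver on each diet, and of cecum 6 on HFD, 6 with inulin added, 5 with the esters and 5 on LFD. Levels are log2 processed signals after normalisation within a tissue, so that 1 unit is a factor of 2, and a level says nothing of one gene's abundance against another's.

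The 3 comparisons with HFD in a tissue share its HFD arrays. Each slide held all 4 diets, but HFD and HFD + inulin lay in other columns of the slide than HFD + inul PB and LFD, and column and diet cannot be told apart where these are compared. In pieces of whole tissue, a lower level can come from fewer cells that express a gene or from less of its RNA per cell, and these cannot be told apart. Cecum HFD replicate 5 stood apart from the other HFD arrays: it had the lowest level of Saa1, Saa2 and Saa3, the lowest summed level of 8 colonocyte markers (19.63 on the log2 scale against 19.85 to 19.99) and the highest of 8 hepatocyte markers (14.89 against 12.33 to 13.88). It also had the highest sums of 17 gut defence genes (20.33 against 19.23 to 19.34) and 14 lipoprotein genes (15.85 against 14.41 to 15.05). HFD + inulin replicate 5 also had a high gut defence sum, 19.75 against 19.28 to 19.35 on the other arrays of its diet. The cecal differences of the members from HFD are given with and without HFD replicate 5. Of the 8 hepatocyte markers, albumin (Alb) was not well above background on any cecum array while the other 7 were on at least 1. Of the 8 colonocyte markers, the epithelial genes Krt20, Slc26a3 and Vil1 were not on any liver array while the other 5 were on at least 1.

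Saa1 and Saa2 are the classical acute phase genes of the liver, where interleukin-1, tumour necrosis factor and interleukin-6 raise them through NF-kB, C/EBP and STAT3 factors, and the secreted proteins travel on high density lipoprotein. The epithelium lining the large bowel also makes them, in contact with the bacteria of the lumen. Saa3 is made largely outside the liver, by macrophages, adipocytes and gut epithelium, and Saa4 is a liver product present at a steady level without infection or injury. Along mouse chromosome 7 the genes lie in the order Saa3, Saa4, the pseudogene Saa-ps, Saa1 and Saa2. Because Saa1 and Saa2 are close copies, their probes may bind each other's transcripts, and the 2 names have been exchanged in older annotation; the probes' own letters were not used here.

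The 250 bases before each start site are shown because Saa1 and Saa2 share nearly all of them while Saa3 and Saa4 do not. The part of these bases in the diet differences was not tested. They come from RefSeq, build GRCm38.p6, and read 5′ to 3′ on the gene's own strand: chr7:46742981-46743230, minus strand, for Saa1, chr7:46751583-46751832, plus strand, for Saa2, chr7:46715677-46715926, minus strand, for Saa3 and chr7:46732604-46732853, minus strand, for Saa4. Capitals mark matches on either strand to a C/EBP motif (TTNNGNAA) or an NF-kB motif (GGG, any 5 bases, CC).
Saa1: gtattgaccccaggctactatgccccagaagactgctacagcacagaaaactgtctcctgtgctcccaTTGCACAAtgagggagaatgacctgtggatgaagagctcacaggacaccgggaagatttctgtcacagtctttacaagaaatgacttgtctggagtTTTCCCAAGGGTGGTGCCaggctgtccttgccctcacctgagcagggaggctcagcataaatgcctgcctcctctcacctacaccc
Saa2: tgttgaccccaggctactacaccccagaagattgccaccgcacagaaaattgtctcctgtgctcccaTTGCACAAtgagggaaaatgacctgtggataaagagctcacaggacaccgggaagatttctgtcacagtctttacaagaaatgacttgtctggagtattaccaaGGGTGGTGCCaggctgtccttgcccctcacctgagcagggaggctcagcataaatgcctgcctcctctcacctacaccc
Saa3: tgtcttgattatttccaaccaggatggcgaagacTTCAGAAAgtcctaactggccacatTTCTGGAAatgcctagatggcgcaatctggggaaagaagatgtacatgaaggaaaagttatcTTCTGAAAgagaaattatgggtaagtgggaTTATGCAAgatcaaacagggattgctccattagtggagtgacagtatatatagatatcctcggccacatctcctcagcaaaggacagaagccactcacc
Saa4: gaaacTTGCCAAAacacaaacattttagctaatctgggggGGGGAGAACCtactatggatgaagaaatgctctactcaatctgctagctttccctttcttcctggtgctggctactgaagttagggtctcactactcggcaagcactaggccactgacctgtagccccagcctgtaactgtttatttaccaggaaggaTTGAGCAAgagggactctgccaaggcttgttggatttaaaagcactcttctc
Saa1 and Saa2 were identical at 238 of 251 aligned columns (94.8%), and the other pairs at 46.8% to 52.4%. Both held the NF-kB match GGGTGGTGCC, 78 bases before the start of Saa1 and 79 before that of Saa2, and the C/EBP match TTGCACAA further upstream. In Saa1 a second C/EBP match, TTTCCCAA, directly adjoined the NF-kB match, and Saa2 did not hold it. Saa3 held 4 C/EBP matches and no NF-kB match, and Saa4 held 2 and 1. Such matches are common, since 36.9% of 32851 promoter windows of the same length held the C/EBP motif and 45.8% the NF-kB motif. A STAT motif (TTCNNNGAA, in 7.02% of windows) and the letters TATAAA (in 12.4%) were in none of the 4 windows.

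In cecum, Saa1 and Saa2 were higher on both fiber diets than on HFD, and Saa3 did not differ detectably. Saa1 was 2.90-fold higher on HFD + inulin and 2.40-fold higher on HFD + inul PB, and Saa2 was 3.45-fold and 2.74-fold higher. On HFD the level of Saa1 ran from 13.32 to 15.64 with a median of 14.03 (mean 14.22 ± 0.82, SD, n = 6). On HFD + inulin it ran from 14.93 to 16.76 with a median of 15.82 (15.76 ± 0.73, n = 6). The HFD + inul PB arrays read 15.23, 14.89, 15.93, 15.43 and 15.91 (15.48 ± 0.45, n = 5). The groups overlapped through 1 HFD array, replicate 2, which at 15.64 lay above 3 of the 6 HFD + inulin arrays and 3 of the 5 HFD + inul PB arrays, while the other 5 HFD arrays lay below every array of the fiber diets. The log2 difference from HFD was 1.54 (SE 0.37, 95% interval 0.77 to 2.30) on HFD + inulin, with P = 0.000474, adjusted P = 0.0400 and an exact permutation P of 0.0108. On HFD + inul PB it was 1.26 (SE 0.39, 0.46 to 2.06), with P = 0.00388, adjusted P = 0.0532 and exact permutation P = 0.0195.

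Saa2 followed Saa1 array by array. Its level on HFD ran from 12.98 to 15.04 with a median of 13.50 (13.66 ± 0.76, n = 6), and on HFD + inulin from 14.64 to 16.46 with a median of 15.41 (15.45 ± 0.68, n = 6). The HFD + inul PB arrays read 14.86, 14.53, 15.58, 14.98 and 15.62 (15.11 ± 0.47, n = 5). HFD replicate 2 was again the only HFD array inside the range of either fiber diet, and 4 of the 6 HFD + inulin arrays lay above all HFD arrays. The log2 difference was 1.79 on HFD + inulin (SE 0.35, 1.06 to 2.51, P = 5.28e-05, adjusted P = 0.0137, exact permutation P = 0.00649) and 1.45 on HFD + inul PB (SE 0.36, 0.69 to 2.22, P = 0.000738, adjusted P = 0.0195, exact permutation P = 0.0130).

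Among the 3 members measured in cecum, 2 met the criteria used in the study, a fold over 1.5 and P under 0.01, as higher on HFD + inulin, against 1.17% of all probes called higher and 2.47% called in either direction. On HFD + inul PB they were again 2, against 2.54% and 4.69%. After adjustment over all probes 2 and 1 stood, where 1.58% and 7.02% of probes did in either direction. Within the 3 slides the Saa1 difference was 1.74, 0.57 and 2.31 on HFD + inulin and 0.31, 1.54 and 2.16 on HFD + inul PB, and that of Saa2 was 1.93, 1.01 and 2.41 and 0.47, 1.83 and 2.30, so that the sign was the same on every slide and the size was not. Without HFD replicate 5 the Saa1 difference on HFD + inul PB was 1.08 and no longer met the criteria (adjusted P = 0.108), and the call was also lost when replicate 6 of HFD or replicate 3 or 5 of HFD + inul PB was left out. Saa1 on HFD + inulin (1.36, adjusted P = 0.0710) and Saa2 on HFD + inulin (1.65, adjusted P = 0.0257) and HFD + inul PB (1.32, adjusted P = 0.0410) still met the criteria without HFD replicate 5. For Saa1 with inulin adjusted P was over 0.05 in 3 of 14 alternatives and 12 of 22 fits without 1 array (range 0.0126 to 0.192), for Saa2 with inulin in 2 of 14 alternatives (highest 0.126), and for Saa2 with the esters in 2 of 22 fits without 1 array (highest 0.0623).

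On LFD the cecal levels lay between those of HFD and the fiber diets. The 5 LFD arrays read 14.28, 15.31, 14.86, 15.55 and 14.63 for Saa1 (14.93 ± 0.51) and 13.96, 14.90, 14.57, 15.04 and 14.08 for Saa2 (14.51 ± 0.48), all inside the HFD range. Saa1 was 0.71 above HFD on the log2 scale (SE 0.39, interval -0.10 to 1.51, P = 0.0820, exact permutation P = 0.130) and Saa2 was 0.85 above (SE 0.36, 0.09 to 1.61, P = 0.0305, adjusted P = 0.839, exact permutation P = 0.0606). Neither met the criteria, which 0.639% of probes met. Without HFD replicate 2, the HFD array with the highest Saa1 and Saa2, the Saa2 difference was 1.13 and did (adjusted P = 0.764). Without HFD replicate 5 the Saa1 and Saa2 differences were 0.53 and 0.71.

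**Figure D1:**
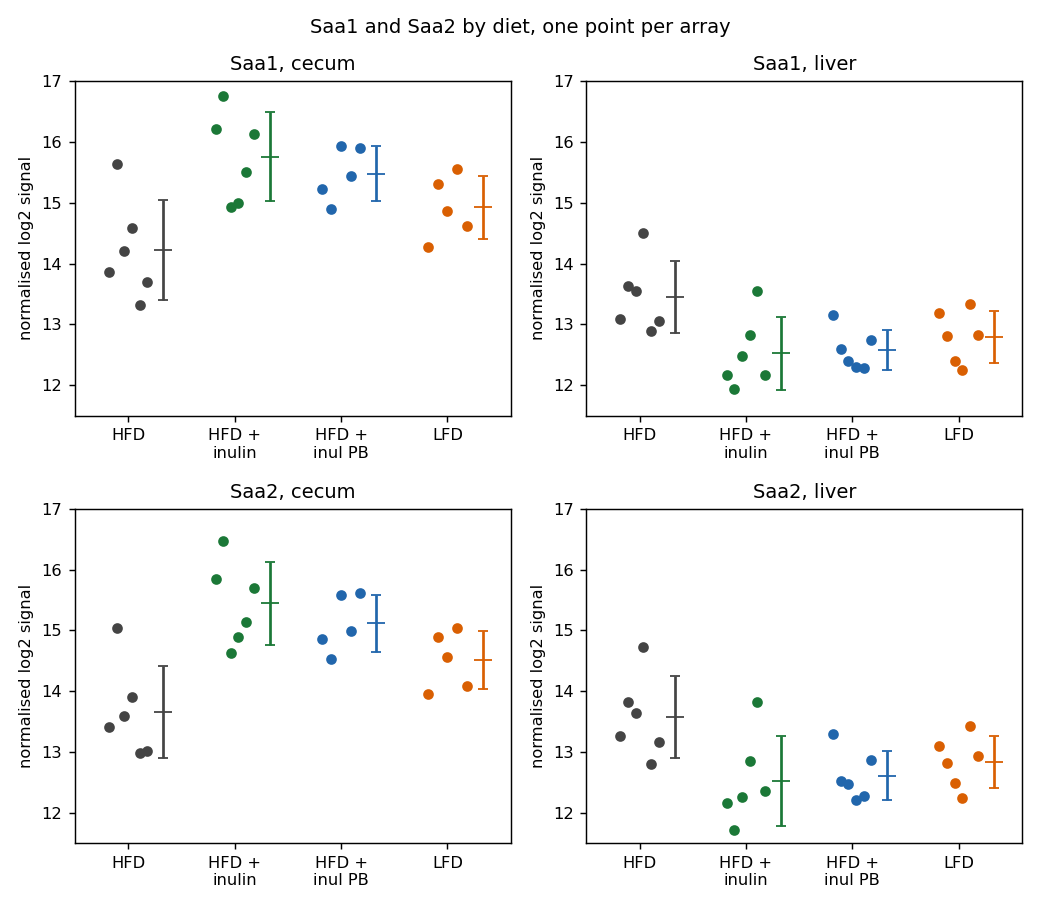
Level of Saa1 and Saa2 (log2 processed signal after normalisation) by diet, with cecum and liver in separate panels; each point is one array and the bars are the mean and SD of a diet. In cecum the HFD arrays other than replicate 2 (15.64 for Saa1) sit below every array of the fiber diets, and in liver HFD holds the highest array, replicate 4 (14.50 for Saa1).

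Saa3 in cecum differed by less than its spread on either fiber diet. Its level on HFD ran from 11.17 to 13.39 with a median of 13.10 (12.82 ± 0.85, n = 6), on HFD + inulin from 12.39 to 13.28 with a median of 12.85 (12.84 ± 0.31, n = 6), and the HFD + inul PB arrays read 13.02, 12.51, 13.08, 12.94 and 13.31 (12.97 ± 0.29). The LFD arrays read 12.10, 12.86, 12.34, 12.41 and 12.50 (12.44 ± 0.28). All 4 diets overlapped, and the low end of HFD was a single array, replicate 5. The difference from HFD was 0.03 (interval -0.57 to 0.62, exact permutation P = 0.965) on HFD + inulin, 0.15 (-0.47 to 0.78, exact P = 0.866) on HFD + inul PB and -0.38 (-1.002 to 0.25, exact P = 0.392) on LFD. Without HFD replicate 5 these were -0.30, -0.18 and -0.71, so that the direction turned on both fiber diets and the LFD difference then met the criteria (adjusted P = 0.791).

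Whether Saa1 and Saa2 moved apart from Saa3 was tested on the difference between 2 members within each array, in 21 comparisons over both tissues that were chosen after the values were seen. In cecum, Saa1 minus Saa3 was 1.51 higher on HFD + inulin than on HFD, and Saa2 minus Saa3 was 1.76 higher, with all 6 HFD + inulin arrays above all 6 HFD arrays in both (exact permutation P = 0.00216, the smallest possible, adjusted P = 0.0227). On HFD + inul PB the differences were 1.11 (exact permutation P = 0.0130, adjusted P = 0.0682) and 1.30 (exact permutation P = 0.0108, adjusted P = 0.0682), and on LFD 1.08 and 1.23 (adjusted P = 0.0758 for both, exact). Without HFD replicate 5 the differences were 1.66 and 1.95 with inulin, 1.26 and 1.495 with the esters and 1.23 and 1.42 on LFD. In liver 0 of the 15 comparisons among the 4 members passed adjustment (lowest adjusted exact P = 0.0909); Saa1 minus Saa3 differed from HFD by -0.89 with inulin and -0.24 with the esters, and Saa1 minus Saa4 by 0.13 on LFD. Where they passed adjustment, with inulin in cecum, these ratios within an array show unequal change and not that Saa3 stayed as it was. The adjustment does not cover the choice of comparisons after the values were seen.

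Saa4 in cecum was at background. Its spot had a median level of 3.00 (HFD), 3.01 (inulin), 2.99 (inulin esters) and 2.96 (LFD), with 4.42 as the highest reading. No cecum array held it well above background, so no difference between diets is given.

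In liver, Saa1 and Saa2 were lower on both fiber diets than on HFD. Saa1 was 1.91-fold lower on HFD + inulin and 1.83-fold lower on HFD + inul PB, and Saa2 was 2.07-fold and 1.95-fold lower, but none of these passed adjustment over all probes (adjusted P = 1.00 for each). The level of Saa1 on HFD ran from 12.89 to 14.50 with a median of 13.32 (13.45 ± 0.59, n = 6). On HFD + inulin it ran from 11.93 to 13.56 with a median of 12.33 (12.52 ± 0.59), on HFD + inul PB from 12.28 to 13.15 with a median of 12.50 (12.58 ± 0.33), and on LFD from 12.25 to 13.33 with a median of 12.82 (12.80 ± 0.43). On each fiber diet 5 of 6 arrays lay below every HFD array, and 1 array, replicate 5 of HFD + inulin and replicate 1 of HFD + inul PB, lay inside the HFD range. The difference from HFD was -0.93 on HFD + inulin (SE 0.28, interval -1.51 to -0.35, P = 0.00312, exact permutation P = 0.0216), -0.87 on HFD + inul PB (SE 0.28, P = 0.00501, exact permutation P = 0.00866) and -0.65 on LFD (SE 0.28, P = 0.0288, adjusted P = 0.680, exact permutation P = 0.0476).

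Saa2 in liver ran from 12.81 to 14.73 with a median of 13.46 on HFD (13.58 ± 0.67, n = 6) and from 11.71 to 13.83 with a median of 12.31 on HFD + inulin (12.53 ± 0.74). It ran from 12.21 to 13.30 with a median of 12.51 on HFD + inul PB (12.61 ± 0.41) and from 12.25 to 13.42 with a median of 12.88 on LFD (12.84 ± 0.42). The highest array of each diet was the same as for Saa1, and 4 of 6 arrays on each fiber diet lay below all HFD arrays. The difference was -1.05 on HFD + inulin (SE 0.32, P = 0.00388, exact permutation P = 0.0368), -0.96 on HFD + inul PB (SE 0.32, P = 0.00710, exact permutation P = 0.0152) and -0.74 on LFD (SE 0.32, P = 0.0331, exact permutation P = 0.0390).

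Of the 4 members, 2 met the criteria as lower in liver on HFD + inulin, against 0.219% of all probes called lower and 0.399% called in either direction, and 2 on HFD + inul PB, against 0.131% and 0.289%. After adjustment limma called 0 of the 55681 probes on either fiber diet. An unadjusted P under 0.05 was found for 2108 and 1741 probes. Both are fewer than the share of 0.05 that no diet difference would give. All 4 calls were lost without HFD replicate 4, the array with the highest Saa1 and Saa2: Saa1 then differed by -0.72 and -0.66, and Saa2 by -0.82 and -0.73, on HFD + inulin and HFD + inul PB. HFD replicate 4 also had the highest colonocyte marker sum in liver, 16.64 on the log2 scale against 14.77 to 15.97 on other HFD arrays. Aqp8 made up 81.1% of that sum, which reached 16.47 on LFD, and the part of these markers in the calls was not tested. Within the 3 slides Saa1 on HFD + inulin differed by -1.32, -1.36 and -0.11 and on HFD + inul PB by -0.49, -1.67 and -0.46, and Saa2 by -1.61, -1.64 and 0.11 and by -0.63, -1.84 and -0.41. The direction thus turned for Saa2 on HFD + inulin on the third slide. Other single arrays also decided these calls: HFD + inulin replicate 2 for both genes and replicate 1 for Saa2 on that diet, and on HFD + inul PB replicate 2 of HFD and replicates 3, 4 and 5 of the diet for both genes, with HFD replicate 3 and HFD + inul PB replicate 2 for Saa2. With replicate number as a block both calls on HFD + inul PB were lost, and with slide as a block that of Saa2. Both calls on HFD + inulin were lost with array position (slide, row and column) as blocks and with only the diets compared. Over all fits without 1 array the 4 differences ranged from -1.31 to -0.66.

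Saa4 in liver was 1.73-fold lower on LFD than on HFD. Its level on HFD ran from 13.25 to 13.72 with a median of 13.61 (13.57 ± 0.18, n = 6), on HFD + inulin from 13.23 to 13.86 with a median of 13.31 (13.40 ± 0.24) and on HFD + inul PB from 13.11 to 13.64 with a median of 13.34 (13.36 ± 0.19). On LFD it ran from 12.25 to 13.17 with a median of 12.83 (12.78 ± 0.31). All 6 LFD arrays lay below every HFD array, as in 0.287% of probes, and below every HFD + inulin array, as in 0.177% of probes, and 5 of 6 lay below every HFD + inul PB array. The difference from HFD was -0.79 (SE 0.13, -1.07 to -0.51, P = 7.55e-06, adjusted P = 0.0350, exact permutation P = 0.00216, the smallest possible), and it was -0.61, -0.87 and -0.88 within the 3 slides. Adjusted P for this difference was over 0.05 in 5 of 13 alternatives and in 13 of 24 fits without 1 array (range 0.0122 to 0.216). It was 1 of 16 probes that passed adjustment in this comparison (0.0287%), and 1 of 4 members called, against 0.717% of probes. On HFD + inulin and HFD + inul PB Saa4 differed from HFD by -0.17 (exact permutation P = 0.186) and -0.21 (exact P = 0.0844).

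Saa3 in liver spread widely on every diet. Its level ran from 9.09 to 10.11 with a median of 9.26 on HFD (9.49 ± 0.48, n = 6), from 8.42 to 10.28 with a median of 9.47 on HFD + inulin (9.45 ± 0.68), from 8.36 to 9.32 with a median of 8.94 on HFD + inul PB (8.85 ± 0.42) and from 8.69 to 9.89 with a median of 9.53 on LFD (9.46 ± 0.44). The difference from HFD was -0.04 on HFD + inulin (exact permutation P = 0.868), -0.63 on HFD + inul PB (SE 0.29, P = 0.0403, exact P = 0.0563) and -0.03 on LFD (exact P = 0.903), and none met the criteria. All 4 diets overlapped, and 3 of the 6 HFD + inul PB arrays lay below every HFD array.

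**Figure D2:**
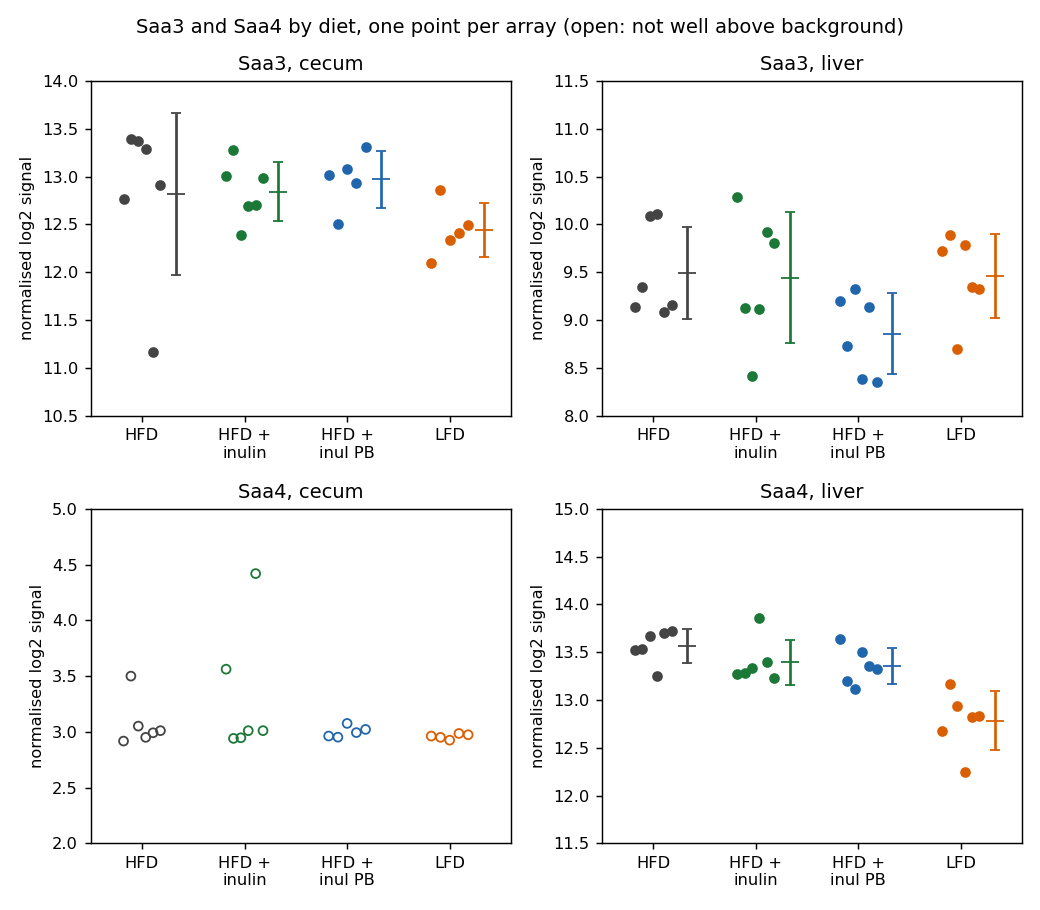
Level of Saa3 and Saa4 (log2 processed signal after normalisation) by diet and tissue, 1 point per array; bars are the mean and SD of a diet and open points are arrays on which the spot was not well above background. Cecal Saa3 on HFD holds 1 low array (11.17), cecal Saa4 lies at background throughout, and liver Saa4 is lower on LFD (12.78 on average) than on HFD (13.57).

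Whether the diet differences of Saa1 and Saa2 differed between the tissues was tested in 1 model of all 46 arrays, normalised together, as the diet difference in cecum minus that in liver. This tests a difference between the tissues and not the direction in either. For Saa1 it was 2.49 on HFD + inulin (SE 0.47, adjusted P = 0.00675) and 2.18 on HFD + inul PB (SE 0.48, adjusted P = 0.0102). For Saa2 it was 2.85 (SE 0.48, adjusted P = 0.00259) and 2.46 (SE 0.50, adjusted P = 0.00472). Of all probes 2.02% met the criteria for such a difference with inulin and 3.52% with the esters, and 0.277% and 2.01% passed adjustment. On both fiber diets Saa1 and Saa2 met the criteria with any 1 of the 46 arrays left out, and adjusted P was at most 0.0263 over these fits and 7 alternatives. On LFD the values were 1.38 (adjusted P = 0.496) and 1.60 (adjusted P = 0.390); both met the criteria, as 1.29% of probes did, and neither passed adjustment. The Saa1 value on LFD lost its call in 9 of the 46 fits with 1 array left out, with values between 1.17 and 1.66. For Saa3 the values were 0.08 (adjusted P = 0.981), 0.83 (adjusted P = 0.406) and -0.33 (adjusted P = 0.903) on HFD + inulin, HFD + inul PB and LFD, and without cecum HFD replicate 5 they were -0.25, 0.499 and -0.66.

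On HFD itself no difference between the tissues was detected for Saa1 or Saa2. Cecum minus liver was 0.42 for Saa1 (-0.25 to 1.09, adjusted P = 0.324) and -0.26 for Saa2 (-0.95 to 0.43, adjusted P = 0.590), and the sign of the Saa2 value turned with quantile normalisation (0.00548) and in the authors' values (0.14). With 1 array left out the Saa1 value ran from 0.14, without cecum HFD replicate 2, to 0.63, and the Saa2 value from -0.54 to -0.03. Saa3 was 7.61-fold higher in cecum (2.93 on the log2 scale, adjusted P = 1.76e-11), where 37.3% of all probes met the criteria between the tissues. In the arrays normalised together, Saa4 in liver lay 1752-fold above a floor in cecum (13.76 against 2.99). The floor was, per cecum array, the higher of its own reading and the lowest signal of any probe well above background. It is not a detection limit, because a spot can lie above that lowest signal and still be at background. Saa4 did so on cecum HFD + inulin replicate 5 (4.36 against 2.82). The factor is therefore no lower bound, and it depends on the processing. In the authors' log2 values Saa4 on HFD read 5.45 to 5.92 in cecum and 13.28 to 13.83 in liver, a smaller gap.

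**Figure D3:**
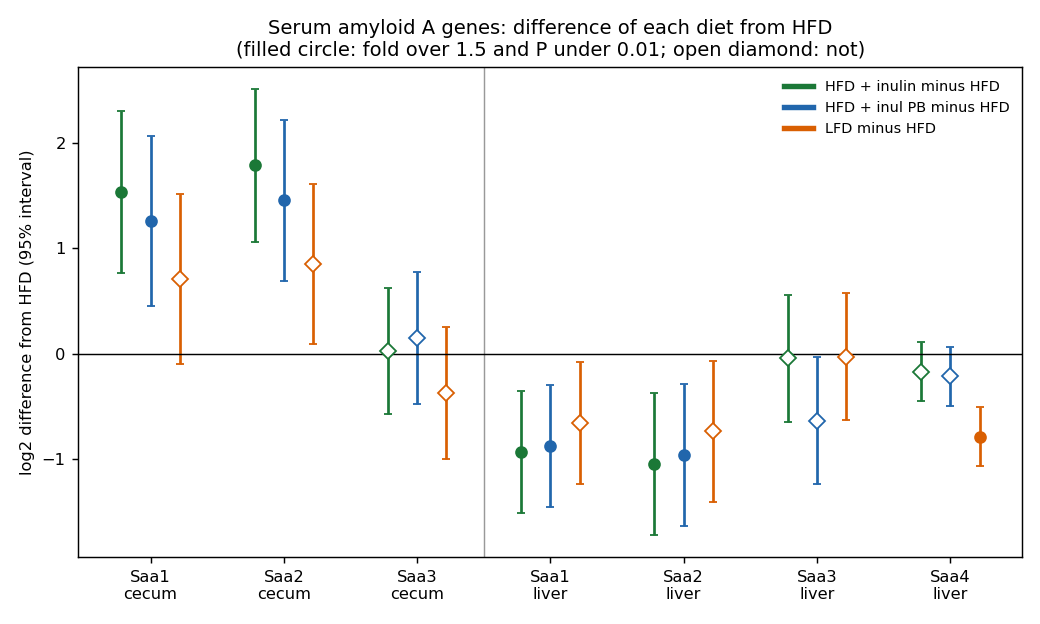
Log2 difference of Saa1, Saa2, Saa3 and Saa4 from HFD on HFD + inulin, HFD + inul PB and LFD, in cecum and in liver; points are the fitted differences and bars their 95% intervals. Saa1 and Saa2 lie above 0 in cecum (1.54 and 1.79 on HFD + inulin) and below 0 in liver (-0.93 and -1.05), and Saa4 in liver lies farthest from 0 on LFD (-0.79).

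The 2 fiber diets differ in whether the inulin carries propionate and butyrate esters, and 0 members met the criteria between them in either tissue, where 0.803% of probes did in cecum and 0.198% in liver. The intervals leave room for differences in both directions. In cecum HFD + inul PB minus HFD + inulin was -0.28 for Saa1 (interval -1.08 to 0.53, exact permutation P = 0.485), -0.33 for Saa2 (-1.09 to 0.43, exact P = 0.383) and 0.13 for Saa3 (-0.4999 to 0.75, exact P = 0.494). In liver it was 0.06 for Saa1 (-0.52 to 0.64, exact permutation P = 0.853), 0.08 for Saa2 (-0.59 to 0.76, exact P = 0.814), -0.59 for Saa3 (-1.19 to 0.01, exact P = 0.115) and -0.04 for Saa4 (-0.32 to 0.24, exact P = 0.762). The cecal Saa1 value was -1.42, 0.97 and -0.15 within the slides, and the 2 diets also lay in different slide columns.

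Ordered by their mean, the cecal levels of Saa1 and Saa2 stood in the order HFD, LFD, HFD + inul PB, HFD + inulin, and no pair of neighbours in that order differed by the criteria. The mean of the fiber diets was 0.69 above LFD for Saa1 (P = 0.0578, exact permutation P = 0.0419) and 0.77 for Saa2 (P = 0.0282, adjusted P = 0.333, exact permutation P = 0.0206), and 0.47 for Saa3 (adjusted P = 0.541, exact permutation P = 0.0128). Of the 3 members measured there 0 met the criteria, against 1.49% of probes. In liver the order of Saa1 and Saa2 was HFD + inulin, HFD + inul PB, LFD, HFD, again without neighbours that differed by the criteria. Liver Saa4 was 0.59 higher on the fiber diets than on LFD (1.51-fold, P = 4.30e-05, adjusted P = 0.0581, exact permutation P = 0.000108), with 11 of 12 fiber arrays above all LFD arrays, where 0.774% of probes met the criteria, and its fold fell under 1.5 in 5 of the 24 fits without 1 array.

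Saa1 and Saa2 varied together among mice of the same diet. Taken as deviations from the diet means, their levels had r = 0.986 and rho = 0.976 over the 22 cecum arrays and r = 0.981 and rho = 0.972 over the 24 liver arrays (permutation P = 1e-05 in each case, the smallest the resamples can give, adjusted P at most 4.5e-05 over 9 relations), and r was 0.977 and 0.966 without the 2 arrays farthest from the median. Because the probes may bind both transcripts, this does not separate the genes. The 2 arrays left out in each relation were those farthest from the median deviation of the lower numbered gene. For Saa1 and Saa3 in cecum they did not include HFD replicate 5, the array with the lowest Saa3. Saa3 followed them in cecum (r = 0.711 and rho = 0.804 with Saa1, permutation P = 0.0002 for r, adjusted P = 0.0006), with r = 0.681 without the 2 farthest arrays, and less clearly in liver (r = 0.310 with Saa1, permutation P = 0.141, and 0.101 without the 2 farthest arrays). For Saa4 in liver no relation with them was detected, with r of 0.103 with Saa1, 0.0905 with Saa2 and -0.271 with Saa3 (permutation P between 0.201 and 0.674), and without the 2 farthest arrays r was 0.374, 0.354 and -0.314.

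**Figure D4:**
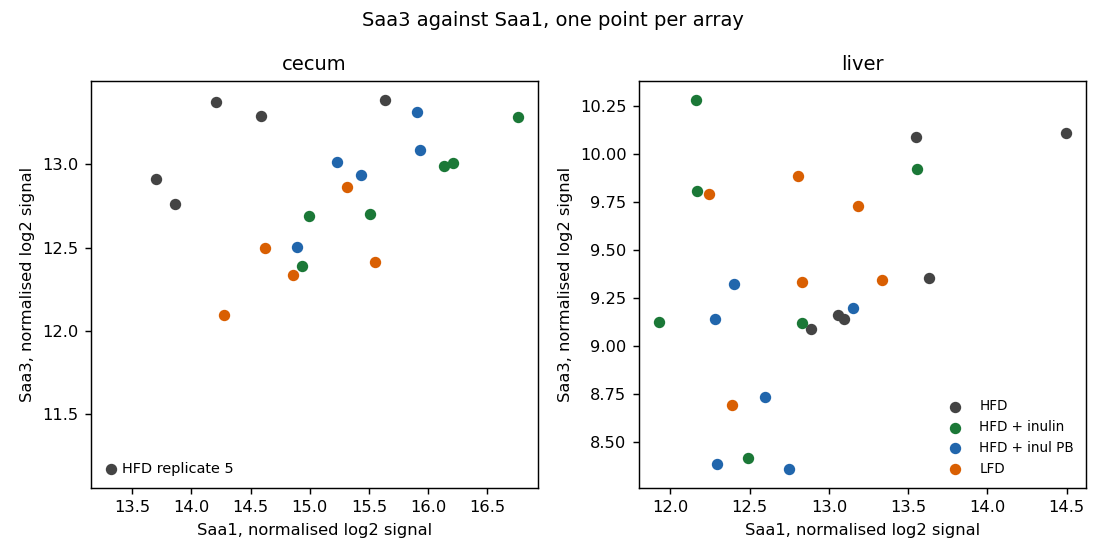
Level of Saa3 against that of Saa1 (log2 processed signal after normalisation) in cecum (left) and liver (right), 1 point per array and coloured by diet. In cecum the fiber arrays lie to the right of the HFD arrays at like Saa3, and HFD replicate 5 lies lowest (Saa1 13.32, Saa3 11.17).

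Few other acute phase genes were called in the direction of Saa1 and Saa2, and the list was not tested as a set. Of 27 measured genes of the liver's acute phase, 1 was called in liver on HFD + inulin, where 0.399% of probes were, 0 on HFD + inul PB and 0 on LFD, and the median log2 difference was -0.09, -0.07 and -0.04 against 0.00 over all probes. The 1 called was Lcn2, lipocalin 2, an iron-siderophore binding protein, which differed from HFD by -0.99 (SE 0.33, adjusted P = 1.00), and the count ran from 0 to 2 over the alternatives. On HFD + inul PB Lcn2 was at -0.90 (SE 0.33) and short of the criteria. Where 0 were called, the largest differences were those of Hamp2, a hepcidin, at -1.13 on HFD + inul PB and of the metallothionein Mt1 at -1.09 on LFD. In cecum the list went the other way from Saa1 and Saa2 on HFD + inul PB, where 9 genes were lower and 0 higher, against 4.69% of probes called, with a median of -0.52. Of these 9, Hp, haptoglobin, differed by -3.59. The orosomucoids Orm2 and Orm3, the metalloreductase Steap4 and the interleukin-1 receptor antagonist Il1rn had spots at background on all 5 arrays with the esters, and no size is given for them. The count was 5 when only probes well above background were kept, 5 without HFD replicate 2 and 7 without HFD replicate 5. In the same comparison 5 of 7 adipocyte markers were lower. Adipoq was at -6.21, which is no exact size, from a spot well above background on 6 of 6 HFD arrays but 2 of 5 with the esters. The part of the adipocyte markers in the acute phase list was not tested. On HFD + inulin, where 2.47% of all probes were called, Mt2, a metallothionein, rose by 0.86. Il1rn was called lower there from a spot well above background on none of the inulin arrays. On LFD 0 were called, against 0.639% of all probes.

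**Figure D5:**
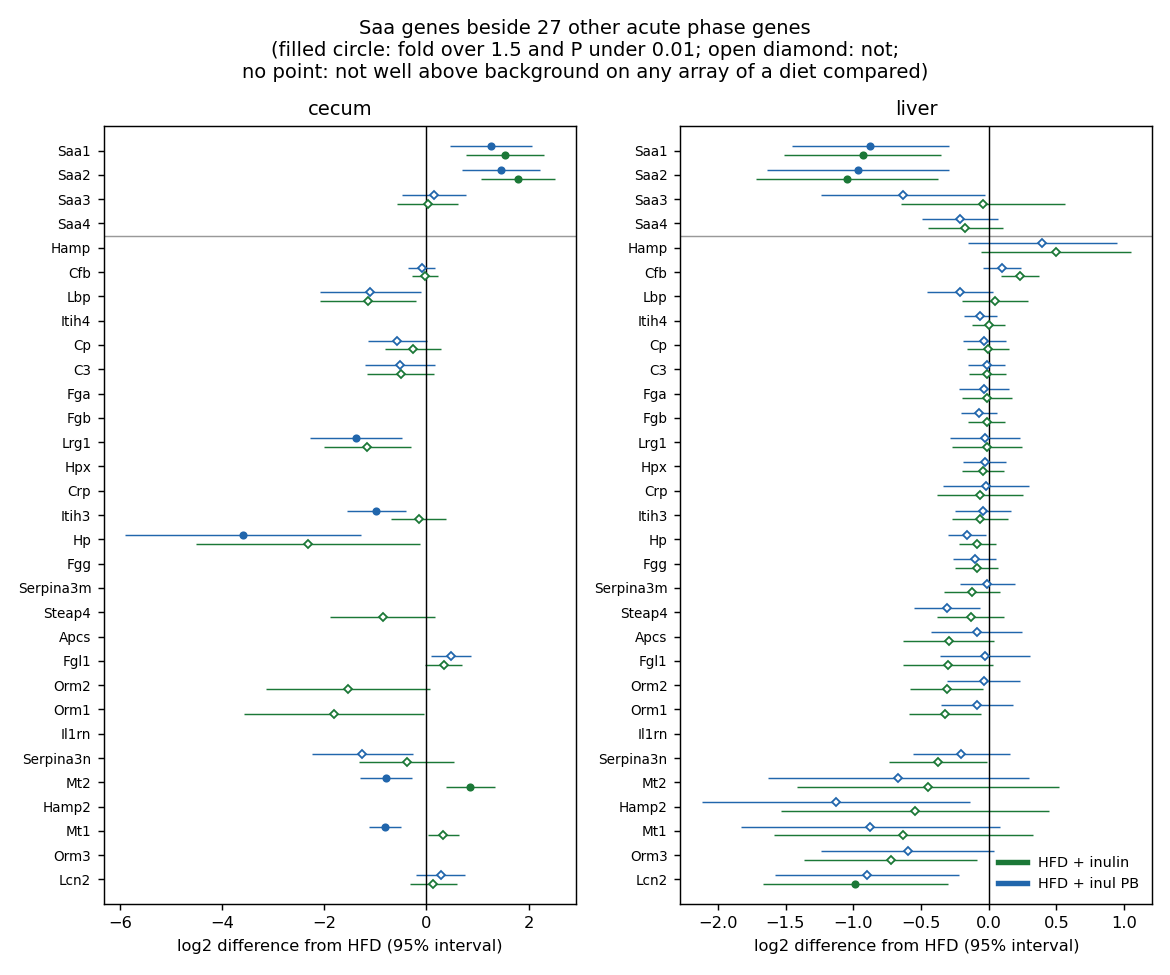
Log2 difference from HFD of the serum amyloid A genes and 27 other acute phase genes with inulin (green) and with the inulin esters (blue), in cecum (left) and liver (right); lines are 95% intervals, filled circles met the criteria, open diamonds did not, and a gene has no point where all arrays of one of the diets compared had its spot at background. Saa1 and Saa2 lie above 0 in cecum and below 0 in liver, Hp lies lowest in cecum (-3.59), Lcn2 is at -0.99 in liver with inulin, and cecal Saa4 has no point.

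Of 20 cytokines, receptors and factors through which Saa genes are induced, 1 was called in cecum on HFD + inul PB, near the 4.69% of all probes, and 0 on HFD + inulin and LFD, and 0 in liver on any diet. The 1 called was Il22ra1, the epithelial receptor chain for interleukin-22, which rose by 0.63 (SE 0.19, adjusted P = 0.0510) and was at 0.25 on HFD + inulin. Its dimmer second probe was at 0.53 and -0.28 and met the criteria on neither diet. The median of the list in cecum was 0.05 with inulin, -0.11 with the esters and 0.00 on LFD, and the liver medians were 0.02, -0.02 and 0.05. Stat3, the factor downstream of interleukin-6 and interleukin-22, was at -0.02 and 0.00 in liver on the 2 fiber diets. Where 0 were called in cecum, the genes with the largest fitted values were Il6 on HFD + inulin and Il1a on LFD. All HFD arrays had both spots at background, so these are no measured differences and no size is given. In liver the largest difference on HFD + inulin was that of Il22ra1 (0.55). Il1a had the largest fitted value there on LFD and on HFD + inul PB. Its liver spot was well above background on 1 of 6 HFD, 4 of 6 LFD and no ester array, and no size is given.

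Among 17 defence proteins of the gut epithelium, Duoxa2, which brings the hydrogen peroxide producing oxidase Duox2 to the cell surface, rose in cecum on both fiber diets, as Saa1 and Saa2 did. It was 1.42 higher on HFD + inulin (SE 0.34, adjusted P = 0.0423) and 1.498 higher on HFD + inul PB (SE 0.36, adjusted P = 0.0158), and its second probe was 1.86 and 2.32 higher. Reg4, a secreted C-type lectin, fell on both, by 0.72 (adjusted P = 0.0516) and 0.99 (adjusted P = 0.00421). On HFD + inul PB Ang4, an antibacterial ribonuclease of the gut, rose by 3.32 (SE 0.33, adjusted P = 2.62e-05), and at 0.24 on HFD + inulin it did not meet the criteria. In all, 1 rose and 1 fell on HFD + inulin, 3 rose and 2 fell on HFD + inul PB, and 0 were called on LFD, against 2.47%, 4.69% and 0.639% of all probes called in either direction, with medians of 0.24, -0.03 and 0.04. Without HFD replicate 5, 3 rose and 2 fell on HFD + inulin. Lcn2 in cecum was at 0.14 (adjusted P = 0.811) and 0.28 (adjusted P = 0.575).

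In cecum on HFD + inul PB, where 4.69% of all probes were called, the list of 9 receptors described for serum amyloid A held 3 lower genes, the scavenger receptor Cd36 (-2.50, adjusted P = 0.0208), the ATP-gated channel P2rx7 (-0.68) and the lipopolysaccharide receptor Tlr4 (-0.61), of which 2 were lower without HFD replicate 5, and 0 on the other diets. In liver Cd36 was lower on LFD (-0.83, adjusted P = 0.485), where 0.717% of all probes were called, a count that ran from 0 to 1 over the alternatives, and 0 were called on the fiber diets. Of 14 proteins of high density lipoprotein and its turnover, 1 was higher in cecum on HFD + inul PB (the endothelial lipase Lipg, 0.98, adjusted P = 0.00928) and 3 lower (Apoe at -0.85, the phospholipid transfer protein Pltp at -0.75 and the cholesterol exporter Abca1 at -0.72), against 1 and 1 without HFD replicate 5. In this comparison 5 of 7 adipocyte and 3 of 9 macrophage markers were also lower, and their part in both lists was not tested. In liver 0 of the 14 were called on any diet, with medians of -0.05, -0.06 and -0.01.

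Some markers of the cells that make serum amyloid A also moved with diet in cecum. Of 8 surface colonocyte markers, all detected, 2 met the criteria as higher on both fiber diets, where 1.17% and 2.54% of all probes were called higher. The chloride-bicarbonate exchanger Slc26a3 rose by 1.04 (adjusted P = 0.0388) and 1.21 (adjusted P = 0.00782). The carbonic anhydrase Car4 rose by 0.82 (adjusted P = 0.0144) and 1.20 (adjusted P = 0.000448). The summed log2 level of the list lay between 19.63 and 19.99 on HFD and 19.88 and 20.06 on LFD, against 20.05 to 20.28 with inulin and 20.09 to 20.26 with the esters, and its brightest gene, Guca2a, made up 26.8% of it. The Saa1 and Saa2 differences were thus accompanied by a higher sum of colonocyte markers, whose part in the result was not tested.

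Adipocyte markers moved the other way on HFD + inul PB in cecum. There 5 of 7 were lower, where 4.69% of all probes were called, and 3 without HFD replicate 5. With Adipoq, these included Retn at -4.30, Fabp4 at -3.05 and Plin1. Plin1 was at -5.00, which is no exact size, from a spot well above background on 1 of 5 arrays with the esters. The summed log2 level of the adipocyte markers ran from 14.01 to 17.50 on HFD, 12.08 to 16.56 on HFD + inulin, 12.50 to 14.53 on HFD + inul PB and 12.86 to 17.01 on LFD. Of 9 measured macrophage markers, 3 were lower on HFD + inul PB (C1qa at -0.91, Itgax at -0.83 and Lyz2 at -0.71), and 2 without HFD replicate 5. Their summed level, of which Itgam made up 72.4%, lay between 15.19 and 15.86 on HFD, with replicate 5 the highest, against 15.15 to 16.02 with inulin, 15.06 to 15.67 with the esters and 15.07 to 15.42 on LFD. Their part in the Saa3 values was not tested. In liver 7 of the 8 hepatocyte markers could be summed, to between 19.41 and 19.91 over all arrays, and 0 of 8 were called on any diet. Of 9 liver macrophage markers 1, the integrin chain Itgax, was lower on both fiber diets (-0.74 and -0.83, adjusted P = 1.00 for both), where 0.399% and 0.289% of all probes were called. The sum lay between 14.26 and 14.82 on HFD, 14.22 and 14.88 with inulin, 14.13 and 14.74 with the esters and 14.04 and 15.07 on LFD.

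Markers of adipocytes and smooth muscle were high on a few liver arrays. The summed log2 level of 7 adipocyte markers, of which Fabp4 made up 54.9%, was 13.56 on LFD replicate 3, 12.89 on LFD replicate 4, 13.42 on HFD + inul PB replicate 4 and 12.76 on HFD + inulin replicate 4, and 10.02 to 12.09 on the other 20 arrays. That of 5 smooth muscle markers, of which Tagln made up 73.8%, was 13.26, 13.86 and 14.68 on the first 3 of these arrays and 11.39 to 13.09 on the rest. None of the 7 or the 5 was called on any diet. LFD replicate 4 held the lowest LFD level of Saa1, Saa2 and Saa4 (12.25 for each), and HFD + inulin replicate 4 the highest Saa4 of its diet. The Saa4 difference of LFD from HFD was -0.68 without LFD replicate 4 (adjusted P = 0.0632) and -0.82 without LFD replicate 3 (adjusted P = 0.0276), and the part of these cells in it was not tested.

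The genes whose level over the arrays was most like that of a member are given by Pearson's r, over 22 cecum arrays and 14212 genes and over 24 liver arrays and 13051 genes, all of which share the arrays and the diets; Saa genes were left out of the ranking. In cecum Saa1 was most like the phospholipase C gene Plcd4 (0.812), the cytochrome P450 genes Cyp2d12 (0.812) and Cyp2d9 (0.805), Gfod2 (0.808) and the alanine aminotransferase Gpt (0.803). The list of Saa2 held Plcd4 (0.833), Gpt (0.830), Tmem25 (0.817), Cyp2d12 (0.817) and Cyp2d9 (0.809). Plcd4 was 1.38 and 1.06 higher on HFD + inulin and HFD + inul PB than on HFD, and Cyp2d9 1.63 and 1.504 higher. These r carry the diet differences. Taken as deviations from the diet means, Plcd4 fell to r = 0.579 with Saa1 (rank 164), and the 5 genes most like Saa1 were then Tmem205 (0.779), 1700057G04Rik (0.773), Stard3nl (0.761), Cyp26b1 (0.756) and Vps8 (0.754), none of them in the list above. Saa3 was most like Dcxr (0.869), Cox8a (0.786), Eif4ebp3 (0.782), Ermp1 (0.782) and Selenoo (0.778), none of which met the criteria on either fiber diet. Within diets the genes most like Saa3 were Cyp2d9 (0.911), Cyp2d34 (0.889), Scarb2 (0.884), Cyp2d11 (0.869) and Dcxr (0.867). These ranks include HFD replicate 5, the array with the lowest Saa3.

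In liver the gene most like Saa1 and Saa2 was Lcn2 (0.872 and 0.850), the acute phase gene called above and also the most alike within diets (0.805 and 0.772), followed for both by Rarres1 (0.810 and 0.794), the complement gene C4b (0.795 and 0.765) and Olig1 (0.774 and 0.746). Rarres1 differed from HFD by -1.14 with inulin (adjusted P = 0.216) and by -0.70 with the esters (adjusted P = 1.00). The fifth was Wfdc21 for Saa1 (0.748) and the angiotensin peptide receptor Mas1 for Saa2 (0.722). Liver Saa3 was most like Ing4 (0.852), the interferon-induced Oasl2 (0.807), Bcl2a1d (0.803), the cytidine deaminase Cda (0.798) and the inflammasome gene Mefv (0.792).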

How the data were processed

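RNA of cecum and liver was measured on one-colour Agilent mouse arrays with Cy3. The authors deposited for each of the 46 arrays the scanner's output, with each spot's intensity on a linear scale; the processed signal used here has the local background already subtracted by the scanner software and is not normalised between arrays. The authors also deposited a table of log2 values of the same arrays, made in R with cyclic loess normalisation and averaging of identical probes; it was used as an alternative. No sample columns of that table were left unused (0), and it holds no comparisons. Its background treatment is not given in the sources used here.

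Control spots and spots marked as outliers were left out. The log2 processed signal was normalised by cyclic loess within a tissue (span 0.7, 3 iterations), and each tissue was fitted with all of its 4 diets by limma 3.58.1 (lmFit and eBayes) in R 4.3.3. The criteria of the study's methods were used, a fold over 1.5 with P under 0.01 before correction. Benjamini-Hochberg correction over all 55681 probes gave the adjusted P, called under 0.05. Exact permutation tests are two-sided and compare means. The 46 arrays were normalised together to compare tissues, which the labels do not pair by mouse; replicates are samples whose labels do not say more than their number, so P values measure the spread between these samples. Gene names come from RefSeq accessions of GRCm38.p6 (27509 probes named), whose promoter table also gave the sequences. The share of spots well above background was 48.4% to 55.9% in cecum and 46.4% to 51.7% in liver, and the number of arrays limits the precision. The fits were tested on simulated data with known changes. Permutation tests, correlations, sequence comparisons and figures used Python 3.11.15 with numpy 2.4.6, pandas 2.3.3, scipy 1.17.1, biopython 1.88 and matplotlib 3.10.9.

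The genes named were all members; up to 4 called genes with the largest difference in each list and comparison, or the largest where none was called; and the 5 genes most like each of Saa1, Saa2 and Saa3 in a tissue, among those well above background on at least 50% of its arrays. Others named were chosen after their values were seen. A gene with several probes is given by the brightest. The members and lists were chosen with earlier results of these data known, and the study itself named Saa1 and Saa2 from these samples, so neither is independent evidence of its direction. The study also measured both genes by real-time PCR in cecum and liver and reported comparable differences on LFD. Those PCR values were not used here. The lists were acute phase proteins, Saa-inducing signals, Saa receptors, gut defence proteins, high density lipoprotein proteins and markers of colonocytes, hepatocytes, macrophages, neutrophils, adipocytes, B and plasma cells and smooth muscle; Cd68, Ly6g, Duox2 and Pla2g2a had no matching probe. One result of the B and plasma cell list, and its summed level, are not reported here. Alternatives were 75th percentile scaling, quantile normalisation, no background correction, normexp with an offset of 50 (on median signals, which replaced mean signals that were not used here), the authors' log2 values, outlier spots kept, only well measured probes, cyclic loess over both tissues, slide, scan day, replicate number and array position as blocks, array weights, only the diets compared, single slides and leaving out each array.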

Additional observations from a re-analysis of the deposited data

Results flagged for a closer look

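On the log2 scale, cecal Saa3 on HFD held 1 array far below the other 5, replicate 5 at 11.17 with the nearest at 12.76, a gap of 0.717 of the group's range. Liver Saa4 on HFD + inulin held 1 array far above the others, replicate 4 at 13.86 with the nearest at 13.40, a gap of 0.728 of the range. These were 2 of 28 groups examined in this way, and chance alone marks about 1 in 20.

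The response to the fiber diets differed between the tissues for 2 members, as cecum minus liver in log2 units of the difference from HFD. It was 2.49 for Saa1 and 2.85 for Saa2 on HFD + inulin, and 2.18 for Saa1 and 2.46 for Saa2 on HFD + inul PB, by limma in one model of all arrays (adjusted P between 0.00259 and 0.0102).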

How the results depend on the processing

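For 47 results, and with single slides counted apart, 507 alternatives kept the direction and the side of the threshold and 19 did not, and 1298 of 1362 fits without 1 array kept both; the cause was not tested where they did not. The liver calls of Saa1 and Saa2 on HFD + inulin were lost with only the diets compared and with array position (slide, row and column) as blocks (both -0.93 for Saa1 and -1.05 for Saa2, with a larger error). That of Saa2 on HFD + inul PB was lost with slide as a block (-0.96). Array weights brought 3 cecal values past the criteria, Saa1 and Saa2 on the fiber diets against LFD (0.83 and 0.91) and Saa2 on LFD (0.89). Cecal Saa3 on HFD + inulin turned to -0.00300 with quantile normalisation, -0.0372 without background correction, -0.0403 in the authors' values, -0.0352 with normexp and -0.0806 with array weights, which also turned it to -0.00820 on HFD + inul PB. Saa2 in cecum against liver on HFD turned to 0.00548 with quantile normalisation and 0.14 with the authors' values.

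With replicate number as a block, the liver calls on HFD + inul PB were lost for Saa1 (-0.87) and Saa2 (-0.96), as was the tissue difference of Saa1 on LFD (1.36), and no other call changed. Arrays with the same number on the same slide deviated together only weakly, with r from -0.162 to 0.252 over 27 cecum pairs and from -0.00485 to 0.278 over 36 liver pairs. In liver, arrays with the same number also shared slide, scan day and row, and r was over 0.1 in 19 of the 36 pairs. Because not every pair passed 0.1, the number was not taken to pair the samples.

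Within single slides the differences moved most, each from 1 or 2 arrays a diet. In cecum, where slides 1, 2 and 3 are given in turn, Saa1 and Saa2 differed from HFD on LFD by 0.05, 0.46 and 1.58 and by 0.20, 0.82 and 1.56, with inulin by 1.74, 0.57 and 2.31 and by 1.93, 1.01 and 2.41, and with the esters by 0.31, 1.54 and 2.16 and by 0.47, 1.83 and 2.30. HFD + inul PB minus HFD + inulin was -1.42, 0.97 and -0.15 for Saa1 and -1.46, 0.82 and -0.11 for Saa2. Saa3 differed from HFD by 0.07, -0.79 and 0.80 with inulin, -0.31, -0.25 and 1.08 with the esters and -0.60, -0.995 and 0.41 on LFD. In liver the values for Saa1 and Saa2 were -1.32, -1.36 and -0.11 and -1.61, -1.64 and 0.11 on HFD + inulin, -0.49, -1.67 and -0.46 and -0.63, -1.84 and -0.41 on HFD + inul PB, and -0.37, -1.70 and 0.11 and -0.58, -1.82 and 0.19 on LFD. Those for Saa3 were 0.46, -1.33 and 0.74, -0.28, -1.25 and -0.38, and 0.56, -0.86 and 0.21. HFD + inul PB minus HFD + inulin in liver was 0.83, -0.31 and -0.35 for Saa1, 0.98, -0.21 and -0.52 for Saa2, -0.74, 0.0846 and -1.12 for Saa3 and 0.15, -0.29 and 0.03 for Saa4. Saa4 on HFD + inulin was -0.25, 0.14 and -0.40, and the fiber diets against LFD 0.43, 0.86 and 0.50.

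With 1 array left out, Saa1 in cecum on HFD + inul PB ranged from 1.08 to 1.54. In liver on HFD + inulin Saa1 ranged from -1.14 to -0.72 and lost its call without HFD replicate 4 or HFD + inulin replicate 2, and Saa2 from -1.31 to -0.82, losing it without HFD replicate 4 or HFD + inulin replicate 1 or 2. On HFD + inul PB Saa1 ranged from -0.99 to -0.66 and lost its call without replicate 2 or 4 of HFD or 3, 4 or 5 of the diet, and Saa2 from -1.12 to -0.73, losing it without replicate 2, 3 or 4 of HFD or 2, 3, 4 or 5 of the diet. Liver Saa4 on the fiber diets against LFD ranged from 0.49 to 0.67, and the fold fell under 1.5 without HFD + inulin replicate 4, HFD + inul PB replicate 1 or 4 or LFD replicate 1 or 4. The tissue difference of Saa1 on LFD ranged from 1.17 to 1.66, and 9 of 46 arrays decided its call. Cecal Saa2 on LFD ranged from 0.71 to 1.13 and cecal Saa3 on LFD from -0.71 to -0.26. The signs of values near 0 turned: cecal Saa3 on HFD + inulin (-0.30 to 0.14) and HFD + inul PB (-0.18 to 0.27), liver Saa3 on HFD + inulin (-0.21 to 0.16) and LFD (-0.11 to 0.13), the tissue difference of Saa3 on HFD + inulin (-0.25 to 0.25), and HFD + inul PB minus HFD + inulin in liver for Saa1 (-0.0620 to 0.26), Saa2 (-0.0785 to 0.34) and Saa4 (-0.0971 to 0.0530). For Saa3 that value ranged from -0.80 to -0.42 and met the criteria without HFD + inulin replicate 3. Among the lists, the liver acute phase genes called on HFD + inulin ranged from 0 to 2 and the liver receptors called on LFD from 0 to 1. The cecal acute phase genes called on HFD + inul PB ranged from 5 to 11 over all alternatives, the gut defence genes called on HFD + inulin from 2 to 5, the lipoprotein genes called on HFD + inul PB from 1 to 5 and the receptors from 1 to 4, and the 1 signal gene was not called (0) without background correction, with normexp or with the authors' values.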

Other observations

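Within single arrays of cecum, Saa2 minus Saa1 was on average higher on the fiber diets than on HFD, but no such difference passed adjustment. The log2 value of Saa2 minus Saa1 was -0.56 ± 0.14 (SD, n = 6) on HFD and -0.31 ± 0.12 (n = 6) on HFD + inulin, a difference of 0.25 (exact permutation P = 0.0130, adjusted P = 0.0779 over 6 comparisons), and on HFD + inul PB it was 0.19 above HFD (exact permutation P = 0.0303, adjusted P = 0.0909). On LFD it was 0.14 above HFD (exact permutation P = 0.0974). In the authors' values the differences were smaller: 0.18 on HFD + inulin (exact permutation P = 0.0779), 0.13 on HFD + inul PB (exact P = 0.193) and 0.04 on LFD (exact P = 0.673). None passed adjustment.

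Other cell markers in cecum are given by their values. Of the B and plasma cell markers, Ms4a1 was lower on LFD (-1.39), where 0.639% of all probes were called. Among 7 measured neutrophil markers 1, Retnlg, was called on HFD + inul PB, where 4.69% of all probes were, from a spot never well above background and so with no size given, and 0 were called without HFD replicate 5; S100a8 was not above background on any cecum array. Of the 8 hepatocyte markers Tat rose in cecum on both fiber diets (0.72 and 0.69) and Pck1 on HFD + inul PB (0.89), where 1.17% and 2.54% of all probes were called higher, and 1 of the 8 was called on each without HFD replicate 5. Both are genes that gut epithelium can also express. Cyp2e1 was at -2.96 and -4.11 by its brighter probe, which met the criteria on neither diet, and at -2.56 and -4.31 by its second probe, which met them on HFD + inul PB, and 0 of 5 smooth muscle markers were called on any diet.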
